A study of Mus musculus with 13 samples.

Results

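The Nr4a family (Nr4a1, Nr4a2 and Nr4a3) and the Foxa family (Foxa1, Foxa2 and Foxa3) were followed through RNA sequencing of mouse hippocampus and of cultured mouse glia. The members are the lines with these symbols, with no threshold on their levels. All 6 were listed in both count tables, among 23238 symbols in the tissue table and 24542 in the culture table. Nr4a2 encodes Nurr1, and Nr4a2 and Foxa2 are the genes that the viruses of the study carried (written N+F).

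The tissue libraries came from the hippocampus of 3xTg mice, whose neurons express mutant human APP and tau from transgenes under the Thy1 promoter, on a mutant presenilin background. Of these, 4 libraries were labelled with N+F adeno-associated virus 9 (AAV9) and 3 with control AAV9, and amyloid beta stands as the treatment of all 7. For these mice the sources used here give neither age nor sex, and for the vectors no promoter. The culture libraries came from hippocampal and cortical glia of ICR pups, an outbred strain, at postnatal day 1. In each region 1 library had amyloid beta with an N+F lentivirus, 1 had amyloid beta with a control lentivirus (amyloid beta control) and 1 had the control lentivirus without amyloid beta (untreated). There was no tissue library without amyloid beta and no N+F library without it. Since the labels name no animals, a p-value here reflects the spread between libraries of a group, and that spread may be technical.

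Nr4a proteins are orphan nuclear receptors that act without a known ligand, and their genes are immediate early genes that neuronal activity, cyclic AMP and inflammatory signals switch on within minutes. Nr4a1 (Nur77) and Nr4a3 (Nor1) are broadly inducible, while Nr4a2 is needed for midbrain dopamine neurons and in microglia can repress inflammatory genes together with the CoREST corepressor. Foxa proteins are forkhead factors that open closed chromatin. Foxa1 and Foxa2 act in endoderm, in the floor plate and in dopamine neuron progenitors, Foxa3 is best known from liver, and none of them is a usual gene of adult hippocampal cells.

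Tissue libraries held 10194437 to 25139406 counts and culture libraries 52189025 to 78273121. A count of 0 allows up to 0.0383 to 0.0575 CPM (a count divided by its library total, scaled alike in all libraries) in a culture library, and this floor of 3 counts, like each counting interval given here, covers counting error only. Markers of pyramidal and dentate neurons were present in all 7 tissue libraries. The untreated culture libraries went against their label of glia. In the 4 culture libraries with amyloid beta, 10 neuronal markers summed to 223 to 316 CPM. In the untreated libraries the sum was 7644 CPM for hippocampal and 8452 CPM for cortical glia, above the 5175 to 7253 CPM of the tissue libraries. Choroid plexus markers summed to 2.85 and 2.93 CPM in the hippocampal and cortical amyloid beta controls, against 4355 and 499 CPM in the untreated libraries of these regions. Endothelial markers summed to 9.14 and 7.49 CPM in the same amyloid beta controls, against 153 and 154 CPM in the untreated libraries. Astrocyte markers summed to 5566 to 9085 CPM in the 6 culture libraries, but single markers differed. Slc1a2 measured 4134.6 and 5436.5 CPM in the untreated hippocampal and cortical libraries, against 753 and 1262 CPM in the amyloid beta controls. Gfap, Aqp4 and Aldh1l1 went the other way. Gfap measured 448 and 291 CPM in the untreated hippocampal and cortical libraries, against 2625 and 1827.5 CPM in the amyloid beta controls. The cortical N+F library also stood apart, with 8440 CPM of 6 fibroblast and mural markers, against 143 CPM in the cortical amyloid beta control. In bulk RNA, fewer cells of a type and less RNA per cell cannot be told apart.

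The regions just upstream of the Nr4a starts are shown because these 3 genes differed together between culture conditions. They are the 250 bases before the start in RefSeq annotation of GRCm38.p6, written 5′ to 3′ on the strand of the gene, with each TGACG in capitals (CGTCA where it is on the other strand), the stretch on either side of the palindromic cyclic AMP response element, called a CRE core here. Nr4a1 lies on the plus strand (chr15:101266596-101266845), Nr4a2 on the minus strand (chr2:57124004-57124253) and Nr4a3 on the plus strand (chr4:48045055-48045304). Foxa1, on the minus strand (chr12:57546112-57546361), is shown for contrast with its forkhead motif in capitals (TGTTTAC, or GTAAACA on the other strand).
Nr4a1: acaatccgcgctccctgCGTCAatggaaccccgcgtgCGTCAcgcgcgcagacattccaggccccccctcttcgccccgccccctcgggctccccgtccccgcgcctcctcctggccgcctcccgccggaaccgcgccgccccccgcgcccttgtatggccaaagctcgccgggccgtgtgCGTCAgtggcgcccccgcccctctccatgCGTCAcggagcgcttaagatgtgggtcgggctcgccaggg
Nr4a2: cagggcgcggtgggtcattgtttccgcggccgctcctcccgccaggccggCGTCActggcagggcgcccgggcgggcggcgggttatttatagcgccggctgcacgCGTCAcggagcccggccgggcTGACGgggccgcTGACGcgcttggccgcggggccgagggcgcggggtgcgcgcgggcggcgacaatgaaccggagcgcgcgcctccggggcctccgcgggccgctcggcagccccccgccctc
Nr4a3: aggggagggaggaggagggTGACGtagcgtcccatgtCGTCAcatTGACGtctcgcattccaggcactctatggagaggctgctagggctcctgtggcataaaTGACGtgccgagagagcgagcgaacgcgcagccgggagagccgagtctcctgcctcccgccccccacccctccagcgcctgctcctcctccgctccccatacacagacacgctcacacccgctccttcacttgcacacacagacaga
Foxa1: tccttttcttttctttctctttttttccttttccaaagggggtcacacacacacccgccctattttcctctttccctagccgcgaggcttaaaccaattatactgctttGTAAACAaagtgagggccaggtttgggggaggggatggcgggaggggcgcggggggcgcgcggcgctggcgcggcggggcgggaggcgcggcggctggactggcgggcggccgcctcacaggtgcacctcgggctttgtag
Each Nr4a window held 4 CRE cores, whereas 0.137% of 32851 RefSeq windows of this length held 4 or more and 17.8% held at least 1. Counted from the start, the first bases of these sites lay at -233, -213, -69 and -40 in Nr4a1, at -200, -144, -123 and -111 in Nr4a2, and at -231, -213, -205 and -147 in Nr4a3. The Foxa windows, including 3 annotated starts of Foxa2, held 0 CRE cores. The full palindrome TGACGTCA was in none of the members' windows (1.55% of all windows), nor was AAAGGTCA, the element that Nr4a monomers bind (1.34%). The forkhead motif occurred once, at -141 in Foxa1 (3.17% of all windows). These are matches of letters within the window and do not show that a factor binds there.

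**Figure D1:**
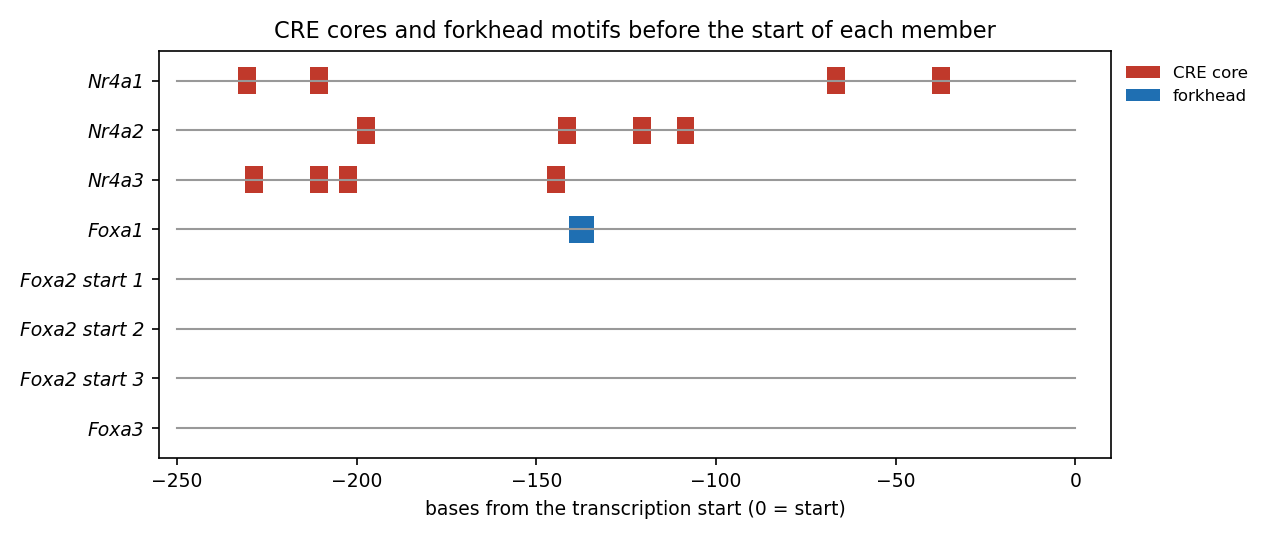
Positions of CRE cores (red) and forkhead motifs (blue) in the 250 bases before each annotated start, with distance from the start in bases on the horizontal axis. Each Nr4a line carries 4 CRE cores and Foxa1 carries 1 forkhead motif.

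In 3xTg hippocampus, Nr4a1 was the member with the widest difference between groups past the count filter. On the scale of CPM adjusted by TMM factors it measured 38.3, 37.6, 46.0 and 40.9 CPM in the N+F libraries, against 14.8, 12.7 and 33.4 CPM in the controls. Each N+F library lay above each control, control 3 was the nearest, and the controls were more spread out than the N+F libraries. The means were 40.7 ± 3.84 CPM with N+F and 20.3 ± 11.4 CPM in controls (SD, n = 4 and 3), a log2 fold change of 1.01 ± 0.28 (SE, 95% interval 0.40 to 1.62). It did not pass the edgeR quasi-likelihood test over all genes (adjusted p = 0.279).

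The test called 0 of the 5 members that passed the filter, beside 0.11% of all 15523 genes tested, and 1313 genes (8.46%) had an unadjusted p under 0.05. Groups that did not overlap were found in 1 of these 5 members, Nr4a1, beside 8.11% of all genes. The call for Nr4a1 turned on the tool and on 1 library. DESeq2 gave an adjusted p of 0.0374, and without control 3 edgeR gave a log2 fold change of 1.55 and an adjusted p of 0.0257, with 0.0257 to 0.553 over the libraries left out in turn.

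Nr4a2, one of the genes delivered, did not differ beyond the spread between libraries. It measured 27.2, 22.0, 25.2 and 33.5 CPM in the N+F libraries, against 30.1, 19.5 and 44.8 CPM in the controls. The groups overlapped, with both the lowest and the highest library among the controls. The means were 27.0 ± 4.85 CPM with N+F and 31.5 ± 12.7 CPM in controls, and the log2 fold change was -0.22 ± 0.24 (95% interval -0.75 to 0.30, edgeR adjusted p = 0.872). Whether reads from the vectors were counted in this line is unknown from the sources used here.

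Nr4a3 measured 10.3, 12.6, 18.1 and 24.4 CPM in the N+F libraries, against 14.6, 16.0 and 19.8 CPM in the controls. The N+F libraries enclosed the range of the controls. The log2 fold change was -0.03 ± 0.26 (95% interval -0.59 to 0.53, edgeR adjusted p = 0.988).

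The make-up of the Nr4a family is given as a description, with no test. On a scale per transcript length (TPM), Nr4a1 made up 54.0 to 63.8% of the family in N+F libraries, against 34.6 to 44.9% in controls. Nr4a2 made up 25.0 to 31.7% with N+F, against 41.4 to 50.2% in controls. Neither share overlapped between the groups, while that of Nr4a3 did, at 7.40 to 14.4% with N+F and 11.9 to 21.1% in controls. The shares are parts of the same sum, so a larger part of Nr4a1 leaves smaller parts for the others. The level of Nr4a2 itself overlapped between the groups. In mean TPM, Nr4a1 led with N+F (28.3 TPM, with Nr4a2 at 13.5 and Nr4a3 at 5.12), whereas Nr4a2 and Nr4a1 stood close in controls (17.5 ± 6.84 and 15.6 ± 8.08 TPM, with Nr4a3 at 5.81).

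The ratio of Nr4a1 to Nr4a2 counts within a library, which needs no scaling between libraries, was examined after these values had been seen. There were 1.41, 1.71, 1.83 and 1.22 Nr4a1 counts per Nr4a2 count in the N+F libraries, against 0.493, 0.650 and 0.744 in the controls. The groups did not overlap and the mean log2 ratio was 1.29 higher with N+F (two-sided exact permutation p = 0.0571, the smallest that 4 against 3 libraries can give). Of 15522 other genes set against Nr4a2 in the same way, 1.69% had groups that did not overlap, and for plain levels it was 8.11% of genes. Dividing by Nr4a2, which varied between controls, can spread such ratios. The 1.69% therefore does not measure how rare the Nr4a1 result is. Nr4a1 counts per Nr4a3 count were 3.70, 2.98, 2.55 and 1.68 with N+F, against 1.01, 0.796 and 1.68 in controls, which overlapped at N+F 4 and control 3 (exact permutation p = 0.114).

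Cell type markers also differed between the tissue groups. The 8 markers of striatal projection neurons summed to 2464, 2096, 2025 and 1456 CPM in the N+F libraries, against 1040, 289 and 2067 CPM in the controls, and none was at 0. Control 3, the control with the most Nr4a1, had the most striatal signal among the controls. By CPM of the library total it had more than N+F 3 and N+F 4. On that scale the order among the N+F libraries was the opposite, with the least striatal signal and the most Nr4a1 in N+F 4. Their Nr4a1 levels on it (37.4, 37.8, 41.2 and 41.7 CPM) had 95% counting intervals that all overlapped. On the TMM scale Nr4a1 was highest in N+F 3. None of the 8 passed the test, all had a positive log2 fold change, and their median was 0.97 (median of all genes -0.00). The 8 pyramidal neuron markers summed to 195 to 226 CPM with N+F and 259 to 325 CPM in controls, and 3 of them fell (edgeR). Marker sums also lay lower in each N+F library than in each control for 6 fibroblast and mural markers (25.3 to 54.0 CPM with N+F, 59.9 to 318 CPM in controls), of which Col1a1 fell. The same held for endothelial (18.2 to 27.1 CPM with N+F, 30.1 to 46.6 CPM in controls) and microglial markers (271 to 352 CPM with N+F, 361 to 393 CPM in controls). It held as well for astrocyte (2175 to 2614 CPM with N+F, 2724 to 3424 CPM in controls) and oligodendrocyte precursor markers (72.4 to 96.1 CPM with N+F, 97.8 to 131 CPM in controls). No single marker of these 4 lists passed the test. All these sums are CPM of the library total. With TMM factors (0.895 for N+F 3 and 1.11 for control 1), the pyramidal, microglial, astrocyte and oligodendrocyte precursor sums overlapped between the groups. The sums for dentate, deep cortex, pan-neuronal, oligodendrocyte, choroid and ependymal markers overlapped. Of the deep cortex markers Fezf2 fell, at 9.33 ± 0.956 CPM with N+F and 22.5 ± 6.24 CPM in controls (edgeR adjusted p = 0.0375). The part of these shifts in the Nr4a1 values was not tested.

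**Figure D2:**
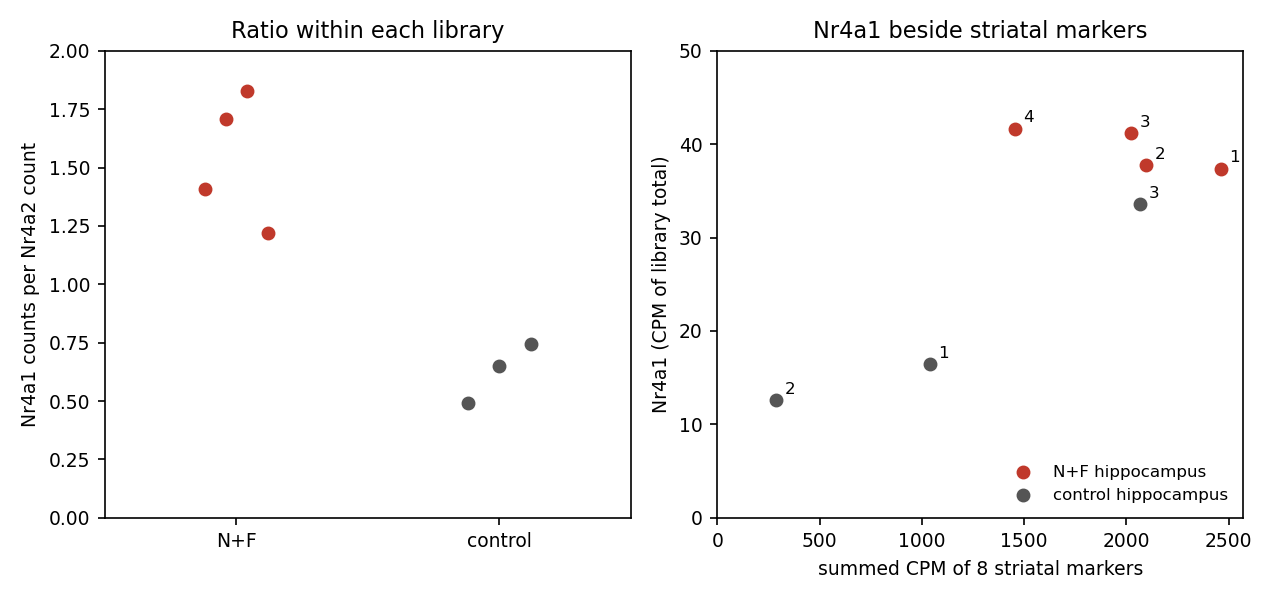
Left, Nr4a1 counts per Nr4a2 count in each N+F (red) and control (grey) hippocampus library. Right, Nr4a1 in CPM of the library total against the summed CPM of 8 striatal markers, with library numbers. The ratio is above 1 in all 4 N+F libraries and below 1 in all 3 controls.

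Foxa2, the other gene delivered, was close to the limit of detection in tissue and fell under the count filter. It had 26, 5, 1 and 6 counts in the N+F libraries, against 5, 1 and 1 in the controls. This corresponds to 2.55, 0.449, 0.0883 and 0.489 CPM of the library total with N+F, against 0.199, 0.0827 and 0.0795 CPM in controls. N+F 1 held 68.4% of all Foxa2 counts of its group, and N+F 3 was within the range of the controls. The means were 0.894 ± 1.12 CPM with N+F and 0.120 ± 0.0680 CPM in controls (SD, n = 4 and 3, two-sided exact permutation p = 0.114).

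The other Foxa genes were also sparse. Foxa1 had 17, 7, 9 and 5 counts in the N+F libraries, against 18, 14 and 20 in the controls. Its log2 fold change was -0.30 ± 0.56 (95% interval -1.53 to 0.92, edgeR adjusted p = 0.937). Foxa3 had 18, 13, 24 and 21 counts with N+F, against 32, 35 and 15 in controls. Its log2 fold change was 0.03 ± 0.45 (95% interval -0.95 to 1.01, edgeR adjusted p = 0.995). The groups overlapped for both genes. Per length, Foxa3 had the highest mean of the family in each group, at 1.52 ± 0.365 TPM with N+F and 1.67 ± 0.869 TPM in controls.

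**Figure D3:**
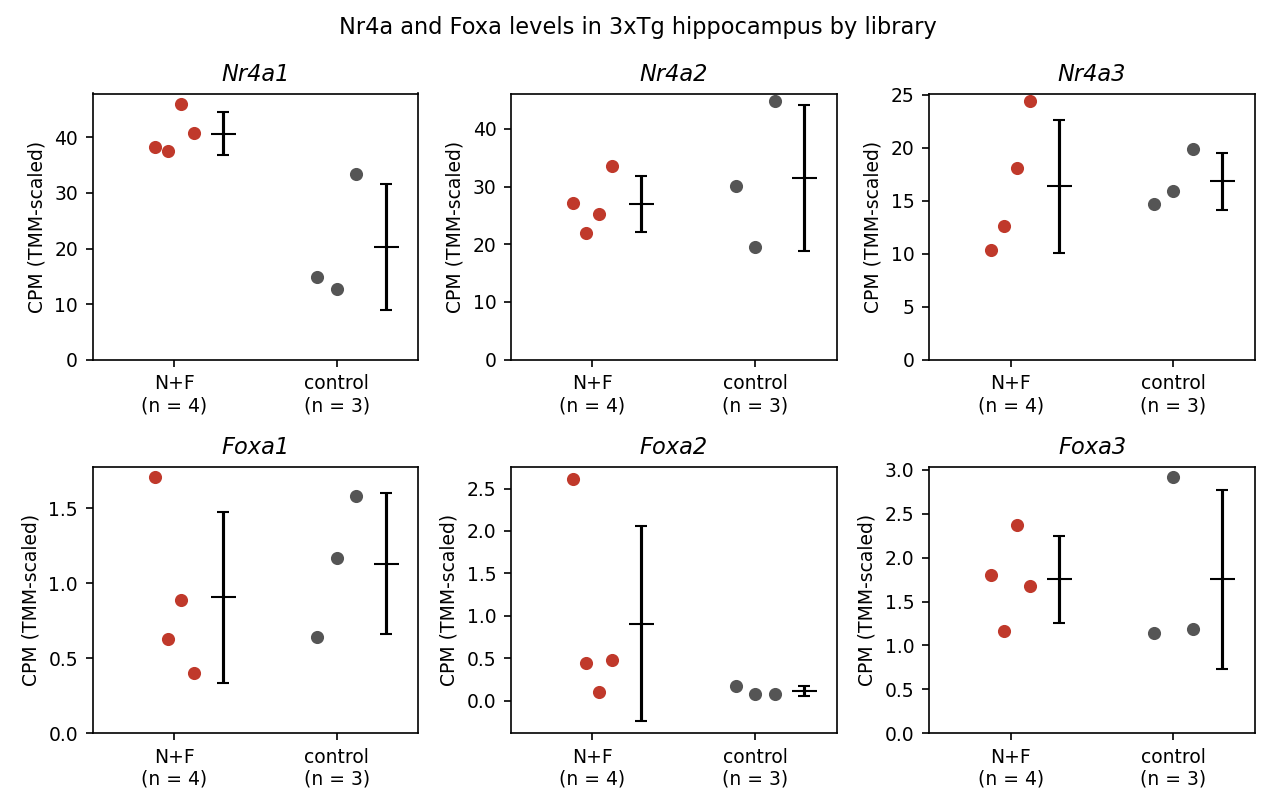
TMM-scaled CPM of the 6 members in N+F (red, n = 4) and control (grey, n = 3) hippocampus libraries, 1 point per library, with mean and SD in black. Nr4a1 is the member whose groups do not overlap, and the Foxa2 mean with N+F rests mostly on 1 library.

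Related and downstream genes were read from lists. The 24 other immediate early genes were all tested in tissue and 0 passed, with 16 positive and 8 negative log2 fold changes and a median of 0.31. Among the genes of that list with wide differences were Egr4, a zinc finger factor, at 22.1 ± 5.21 CPM with N+F and 11.9 ± 4.66 CPM in controls (log2 fold change 0.91, adjusted p = 0.294), and Fos, a subunit of AP-1, at 27.9 ± 4.47 and 16.2 ± 3.29 CPM with N+F and in controls (0.80, adjusted p = 0.221). Among 16 partners and corepressors, 0 passed and the median was -0.04. Rxrg, a retinoid X receptor, measured 73.8 ± 19.7 CPM with N+F and 43.4 ± 24.6 CPM in controls (adjusted p = 0.535).

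The same held for lists tied to the delivered factors. Of 15 dopamine neuron genes 13 were tested and 0 passed (median 0.25). Of 16 floor plate genes 11 were tested and 0 passed (median 0.01), and Slit1, an axon guidance ligand, measured 14.6 ± 4.16 CPM with N+F and 28.4 ± 1.48 CPM in controls (adjusted p = 0.163). Of 20 endoderm genes 8 were tested and 0 passed (median -0.09). Of 10 inflammatory genes that Nurr1 and CoREST are known to repress in microglia, 4 were tested and 0 passed (median -0.24). Among relatives, 27 of 43 other Fox genes and 13 of 20 other nuclear receptor genes were tested and 0 passed, with medians of -0.01 and -0.12.

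The genes whose levels ran most closely beside a member over the 7 tissue libraries were ranked by Pearson's r of log2(CPM + 1), with TMM-scaled CPM, as a description. A Nr4a member was set against 11624 genes and a Foxa member against 11625. Per1, a clock gene, ran closest to Nr4a1 (r = 0.987), followed by Mrpl23 and 5031426D15Rik (both r = 0.974). Per1 measured 45.4, 42.3, 47.2 and 46.5 CPM with N+F, against 33.5, 33.1 and 43.0 CPM in controls, so that control 3 was again the highest control. For Nr4a2 the closest were Mpp1, Yeats4 and Uvrag (r = 0.967, 0.966 and 0.963), and for Nr4a3 Herpud1, Sorcs3 and Wls (r = 0.987, 0.979 and 0.975). These lists of 3 genes did not overlap, but they are too short to tell whether the members ran apart. An r over 0.95 was reached by 15 genes for Nr4a1, 6 for Nr4a2 and 17 for Nr4a3. For Foxa1 the closest were Yipf2, Apc2 and Dazap1 (r = 0.992, 0.983 and 0.983), and for Foxa3 Csrp1, Cnp and Ccdc32 (r = 0.959, 0.953 and 0.947). Foxa2, whose mean over the 7 libraries was under 1 on that CPM scale, was not ranked.

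In cultured glia the delivered genes were high in both N+F libraries. Here each group was 1 library, so differences have no replicate check, and a gene was counted as higher or lower when the ratio of CPM + 1 was at least 2-fold the same way in both regions and a library of each pair reached 1 CPM. With amyloid beta, 2 of the 6 members were higher with N+F than in the control in both regions, Nr4a2 and Foxa2, and 0 were lower. Foxa1 and Foxa3 stayed under 1 CPM and could not be counted. Among 13479 genes 2.07% were higher and 0.119% lower.

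Nr4a2 measured 488 CPM with N+F and 3.35 CPM in the amyloid beta control of hippocampal glia, a ratio of 146 (95% counting interval 129 to 166). In cortical glia it measured 36.9 CPM with N+F and 5.14 CPM in the amyloid beta control, a ratio of 7.19 (6.39 to 8.10). Against the untreated libraries, which had 58.3 CPM in hippocampal and 19.0 CPM in cortical glia, both N+F libraries were higher. Per length of the genes' own transcripts, Nr4a2 made up 97.4% of the Nr4a family in hippocampal N+F glia and 55.9% in cortical N+F glia.

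Foxa2 had 8482 counts (140 CPM) with N+F in hippocampal glia and 1059 counts (13.5 CPM) in cortical glia. It had 0 counts in both amyloid beta controls and in both untreated libraries. Set against a floor of 3 counts per library, it was at least 3494-fold higher with N+F in hippocampal glia and at least 274-fold higher in cortical glia.

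Both delivered genes were lower in cortical than in hippocampal N+F glia by a similar factor. Hippocampal over cortical N+F glia gave a ratio of 13.2 for Nr4a2 and 10.4 for Foxa2. The ratio of Foxa2 to Nr4a2 counts was 0.288 in hippocampal and 0.366 in cortical N+F glia, or 0.482 and 0.614 per length. These lengths are those of the genes' own transcripts, and the length of a vector transcript is unknown from the sources used here. With 1 library per region, the region and the library cannot be told apart.

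The culture table listed Nr4a2 on 2 lines and Foxa2 on 3. For each of the 6 members the number of lines equalled the number of its curated RefSeq transcripts, as it did for 84.1% of 23514 symbols and for 75.9% of the 6220 symbols with several lines. In hippocampal glia line 2 of Nr4a2 had 28155 counts with N+F, 250 in the amyloid beta control and 1496 in the untreated library, while line 1 had 1324, 0 and 2445 counts in the same order of libraries. In cortical glia line 2 had 2190, 0 and 670 counts and line 1 had 700, 312 and 321 counts, again with N+F, the amyloid beta control and the untreated library in turn. Line 2 thus carried most Nr4a2 counts in both N+F libraries, in the hippocampal amyloid beta control and in the untreated cortical library, and line 1 in the other two. For Foxa2, line 2 held 8339 counts in hippocampal and 1059 counts in cortical N+F glia, line 1 held 143 counts in hippocampal N+F glia alone, and line 3 held 0 counts throughout. If the lines are transcripts whose shared reads were divided, the counts of 1 line are less certain than their sum.

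**Figure D4:**
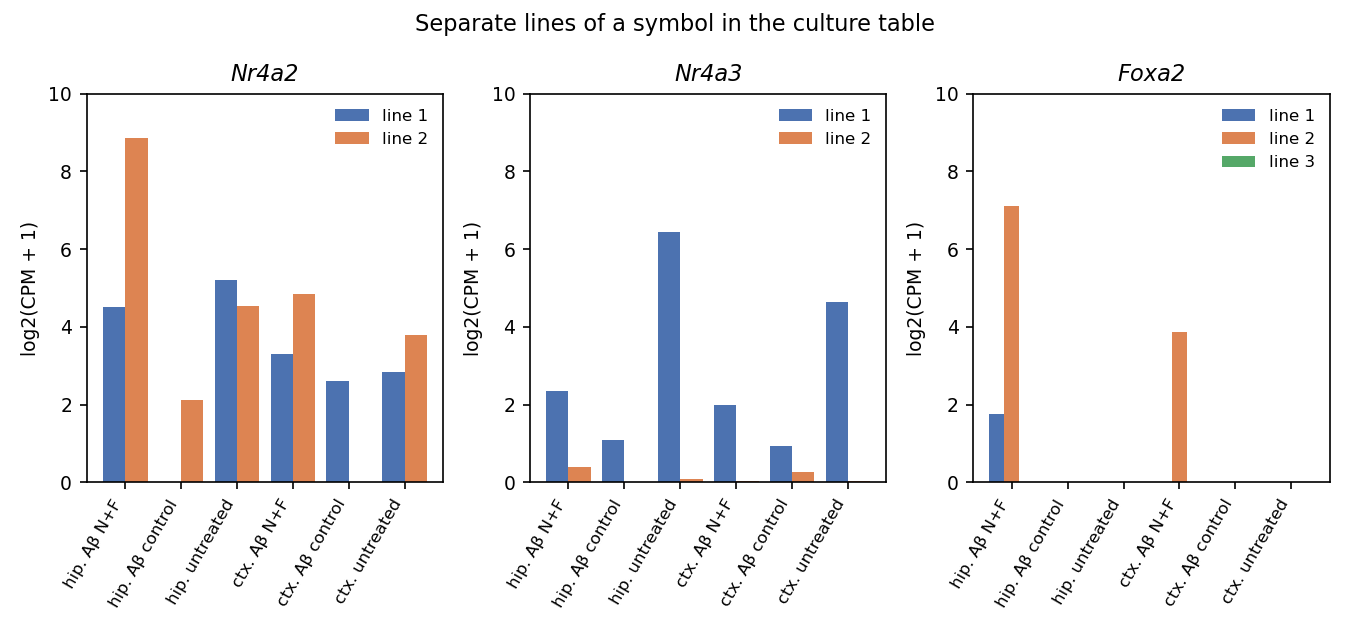
Level of each separate line of Nr4a2, Nr4a3 and Foxa2 in the culture table, as log2(CPM + 1), with hippocampal (hip.) and cortical (ctx.) libraries ordered N+F, amyloid beta (Aβ) control, untreated. Line 2 of Nr4a2 and line 2 of Foxa2 carry most counts in both N+F libraries.

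Nr4a1, which was not delivered, measured 7.24 CPM with N+F and 5.26 CPM in the amyloid beta control of hippocampal glia, a ratio of 1.38 (95% counting interval 1.20 to 1.58). In cortical glia it measured 19.5 CPM with N+F and 1.80 CPM in the amyloid beta control, a ratio of 10.8 (8.93 to 13.3). The cortical ratio of Nr4a1 was larger than that of Nr4a2 with lines summed, though not on the largest line of Nr4a2. The cortical N+F library is the one with high fibroblast and mural markers. Its endothelial sum (73.3 against 7.49 CPM) was also above that of the cortical amyloid beta control. The same held for its microglial (233 against 118 CPM) and oligodendrocyte sums (438 against 171 CPM). Its astrocyte, pan-neuronal and oligodendrocyte precursor sums were below those of that control. The part of these shifts in the Nr4a1 value was not tested. In cortical glia alone 12.9% of 13999 genes were at least 2-fold higher with N+F, against 5.6% of 13814 genes in hippocampal glia.

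Nr4a3 measured 4.45 CPM with N+F and 1.15 CPM in the amyloid beta control of hippocampal glia, and 2.99 CPM and 1.10 CPM in the same groups of cortical glia. The ratios were 3.87 (95% counting interval 3.02 to 4.99) and 2.71 (2.06 to 3.61). On the CPM + 1 scale the log2 ratios were 1.34 and 0.92, so that the cortical value missed the 2-fold rule, and the plain ratio passed it in both regions. Its levels with N+F stayed below the 86.6 and 24.0 CPM of the untreated hippocampal and cortical libraries.

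Foxa1 had 0 counts in all culture libraries except the cortical amyloid beta control, which had 2. Foxa3 had 7 counts in hippocampal and 15 in cortical N+F glia, 7 and 13 in the amyloid beta controls of the same regions, and 0 in both untreated libraries. These levels lay under 1 CPM, and the N+F to control ratios of 1.24 (95% counting interval 0.370 to 4.13) in hippocampal and 0.895 (0.397 to 2.04) in cortical glia did not differ from 1 beyond counting error.

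A secondary edgeR fit with region and condition as additive terms, in which the spread is the disagreement between the 2 regions, called 0 of 16762 genes for N+F over amyloid beta control. In that fit 1156 genes (6.9%) had an unadjusted p under 0.05. The adjusted p was 0.484 for Foxa2, 0.611 for Nr4a2, 0.692 for Nr4a3 and 0.708 for Nr4a1.

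The 3 Nr4a genes were all lower in the amyloid beta control than in the untreated library in both regions, that is 3 of the 6 members. The Foxa genes stayed under 1 CPM in these libraries, so the rule could be read for the Nr4a genes alone. Among 14516 genes 21.5% were lower and 16.6% higher by the same rule. Nr4a1 measured 5.26 CPM with amyloid beta and 50.0 CPM untreated in hippocampal glia, and 1.80 CPM with amyloid beta and 75.4 CPM untreated in cortical glia. It was 9.50-fold and 42.0-fold lower with amyloid beta in these regions. Nr4a2 measured 3.35 CPM with amyloid beta and 58.3 CPM untreated in hippocampal glia (17.4-fold lower), and 5.14 CPM with amyloid beta and 19.0 CPM untreated in cortical glia (3.70-fold lower). Nr4a3 measured 1.15 CPM with amyloid beta and 86.6 CPM untreated in hippocampal glia (75.2-fold lower), and 1.10 CPM with amyloid beta and 24.0 CPM untreated in cortical glia (21.8-fold lower).

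The size of the difference varied between genes and regions. In hippocampal glia the log2 ratio of CPM + 1 was -5.35 for Nr4a3, -3.77 for Nr4a2 and -3.03 for Nr4a1. In cortical glia it was -4.77 for Nr4a1, -3.57 for Nr4a3 and -1.70 for Nr4a2. With the largest line of each symbol in place of the sum, Nr4a2 had -2.50 in hippocampal and -3.98 in cortical glia, which changes its place in both orders. The additive edgeR fit called Nr4a3 (log2 fold change -5.39, adjusted p = 0.00484) and Nr4a1 (-4.02, adjusted p = 0.0248) lower, as it did 17.2% of all genes, and gave an adjusted p of 0.0944 for Nr4a2 (-2.64).

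Cell markers moved with this comparison. The 10 neuronal markers summed to 316 CPM with amyloid beta and 7644 CPM untreated in hippocampal glia, and to 296 and 8452 CPM in the same groups of cortical glia. The 6 oligodendrocyte markers summed to 293 CPM with amyloid beta and 8807 CPM untreated in hippocampal glia, and to 171 and 7424 CPM in cortical glia. The 8 microglial markers summed to 81.3 CPM with amyloid beta and 472 CPM untreated in hippocampal glia, and to 118 and 490 CPM in cortical glia. The part of these shifts in the Nr4a values was not tested, and this comparison has no value without the untreated libraries.

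**Figure D5:**
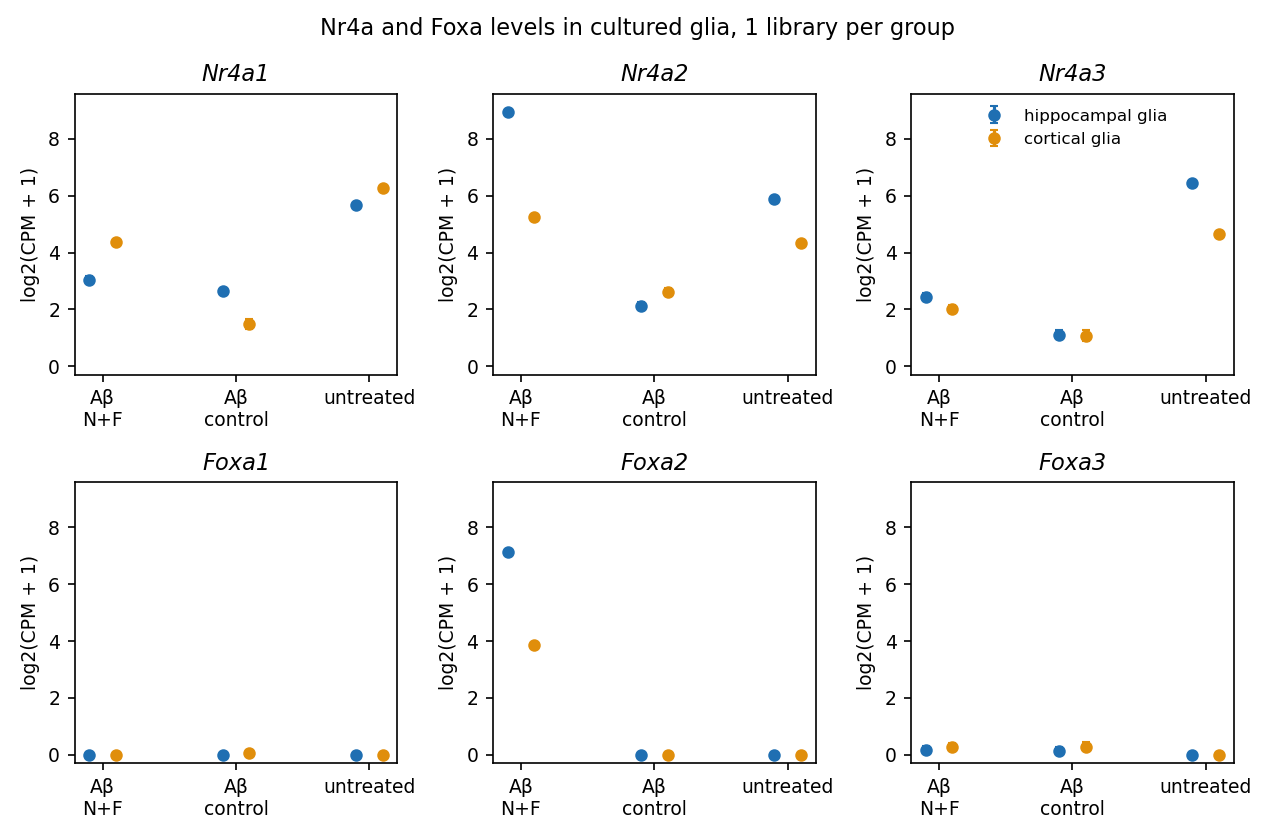
Level of each member in the 6 culture libraries as log2(CPM + 1), by condition, for hippocampal (blue) and cortical (orange) glia, with 95% counting intervals that are mostly smaller than the points. The Nr4a genes are lowest in the amyloid beta (Aβ) controls, and Foxa2 is above 0 in the N+F libraries alone.

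The lists showed how other genes stood in the same culture comparisons, which share the amyloid beta control libraries. Of the 24 other immediate early genes, 22 reached 1 CPM with N+F or its control in both regions. Of these, 4 were higher with N+F in both regions (Egr1, Egr3, Dusp1 and Fosl1) and 0 were lower. Egr1, a zinc finger factor, measured 88.3 CPM with N+F and 26.5 CPM in the amyloid beta control of hippocampal glia, and 74.1 and 10.8 CPM in the same groups of cortical glia. For amyloid beta control over untreated, 8 of the 24 were lower and 6 higher. Egr3 and Arc, markers of neuronal activity, were lower, with Egr3 at 0.683 CPM with amyloid beta and 88.3 CPM untreated in hippocampal glia, and 0.132 and 134 CPM in cortical glia. Ier3, a stress and cytokine response gene, was higher, at 190 CPM with amyloid beta and 3.95 CPM untreated in hippocampal glia and 108 and 5.14 CPM in cortical glia. The other lower genes were Egr1, Egr4, Npas4, Nptx2, Bdnf and Homer1, and the other higher ones Fosl1, Fosl2, Junb, Sik1 and Btg2. Among all 14516 genes 21.5% were lower and 16.6% higher. Immediate early genes thus stood on both sides, and being lower was not particular to the 3 Nr4a genes.

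Of the 15 dopamine neuron genes, 5 reached 1 CPM with N+F or its control in both regions. Of these, 1 was higher with N+F in both, beside 2.07% of all genes. This was Gch1, which makes the tetrahydrobiopterin cofactor of dopamine synthesis. It measured 24.3 CPM with N+F and 9.94 CPM in the amyloid beta control of hippocampal glia, and 15.0 and 6.75 CPM in cortical glia. The neurotrophic factor receptor gene Ret measured 26.0 CPM with N+F and 1.06 CPM in the control of hippocampal glia, but 8.42 and 4.41 CPM in cortical glia. Aldh1a1, a retinaldehyde dehydrogenase of dopamine neurons, measured 148 CPM with N+F and 13.3 CPM in the control of hippocampal glia, and 42.7 and 39.4 CPM in cortical glia. In the untreated libraries Aldh1a1 measured 62.6 CPM in hippocampal and 63.4 CPM in cortical glia. Ret and Aldh1a1 were thus past 2-fold with N+F in hippocampal glia alone, where 5.6% of 13814 genes were at least 2-fold higher. No test of that difference between regions was possible with 1 library each.

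Of the 16 floor plate genes, 6 reached 1 CPM in both regions, and 1 was higher with N+F in both. This was Gli1, an effector of hedgehog signalling. It measured 3.04 CPM with N+F and 0.870 CPM in the control of hippocampal glia, and 3.97 and 0.0659 CPM in cortical glia. Spon1, a floor plate matrix protein, measured 109 CPM with N+F and 20.3 CPM in the control of hippocampal glia, and 39.4 and 44.1 CPM in cortical glia. Only 2 of the 20 endoderm genes reached 1 CPM in both regions, and both were higher with N+F. Fgb, a fibrinogen chain made in liver, had 8.07 and 2.96 CPM in hippocampal and cortical N+F glia and 0 CPM in both amyloid beta controls. The other was the keratin Krt19. Of the 10 CoREST-linked inflammatory genes, 9 reached 1 CPM in both regions. The nitric oxide synthase Nos2 was higher with N+F (17.9 against 6.52 CPM in hippocampal and 19.2 against 1.68 CPM in cortical glia) and the cytokine Tnf was lower (0.397 against 1.93 CPM and 0.409 against 3.11 CPM).

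Among relatives of the delivered genes, Foxp1 was the 1 other Fox gene higher with N+F in both regions, of 16 that reached 1 CPM. It measured 32.4 CPM with N+F and 10.7 CPM in the amyloid beta control of hippocampal glia, and 41.3 and 9.83 CPM in cortical glia. For amyloid beta control over untreated, 3 other Fox genes were higher and 6 lower of 22 that reached 1 CPM. Foxj1, which drives motile cilia, was higher, at 571 CPM with amyloid beta and 20.2 CPM untreated in hippocampal glia. Of 13 other nuclear receptor genes at that level, 0 changed with N+F in both regions, and 2 were higher and 3 lower in the amyloid beta control. Of the 16 partners and corepressors, 0 changed with N+F in both regions, and Rxrg and Rcor2, which encodes a CoREST protein, were lower in the amyloid beta control.

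Over the 6 culture libraries, among 12326 genes, Kng1 and Nps ran closest to Foxa2 (r = 0.998 and 0.995), followed by C4a (r = 0.989). Kng1, a kininogen gene expressed in liver, measured 54.1 CPM in hippocampal and 10.6 CPM in cortical N+F glia and 0 CPM in the other 4 libraries. Nps, the precursor of neuropeptide S, measured 82.6 and 6.26 CPM in the same N+F libraries and at most 0.133 CPM elsewhere. The closest to Nr4a2 were 2700049A03Rik, F5 and Ace (r = 0.987, 0.984 and 0.966). F5, coagulation factor V, measured 449 CPM with N+F, 1.53 CPM in the amyloid beta control and 50.8 CPM in the untreated library of hippocampal glia. In cortical glia it measured 13.2, 1.38 and 5.44 CPM in the same order. F5 was picked for its likeness to Nr4a2 in these libraries, so a shared order follows from the choice. A high r does not need a wide change, as C4a ran only from 4.22 to 8.38 CPM and 2700049A03Rik from 8.94 to 15.4 CPM. An r over 0.95 was reached by 25 genes for Foxa2 and 7 for Nr4a2. For Nr4a1 and Nr4a3, 238 and 323 genes had an r over 0.95, led by Col9a2 (0.999) and Cep120 (0.998). The pattern of Nr4a1 and Nr4a3 is thus shared with many genes of these 6 libraries.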

How the data were processed

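Per the labels' protocols, libraries were made with a SMARTER mRNA-Seq kit from 1.3 µg of Trizol-extracted RNA. The authors deposited raw counts, 1 table for tissue and 1 for culture, with whole numbers whose totals differ between libraries. TopHat, HISAT2 and edgeR are named in the submitters' processing notes, without role or version. They list hg19, a human build, for tables of mouse symbols, so no coordinates come from the tables. The sources used here say nothing of strand or of vector transcripts in the counting. Groups and replicate numbers came from sample titles, and 0 columns were left unused.

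Lines of a symbol were summed (44 repeated lines in tissue, 12238 in culture), so a read counted on several lines would count more than once. Tissue was tested with edgeR 4.0.16 in R 4.3.3 (filterByExpr, TMM, quasi-likelihood, Benjamini-Hochberg over all tested genes, threshold 0.05), with DESeq2 1.42.0 as an alternative. For Foxa2, which failed that filter, an exact permutation test (two-sided, scipy 1.17.1) was used. TPM used the longest protein-coding GENCODE M21 transcript of a gene, with lengths found for 95.5% of tissue and 96.5% of culture symbols. Culture ratios used a pseudocount of 1 CPM, and counting intervals are exact at 95%. No 2 replicate tissue libraries agreed within sampling noise (chi-square per gene from 15.0 to 56.1). Upstream windows came from RefSeq (GRCm38.p6), in which all 6 members matched by symbol.

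The members and lists were chosen with earlier results of these data known. From each list, the genes named were drawn from the 4 with the largest log2 change and at least 5 CPM in a library, plus genes past the test or the 2-fold rule. The genes ranked as most alike were the 3 with the highest r among genes averaging at least 5 CPM. Alternatives covered scaling, filter, tool, pseudocount, repeated lines and each library left out.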

Additional observations from a re-analysis of the deposited data

Results flagged for a closer look

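The Foxa2 level of N+F 1 in hippocampus stood apart from the other 3 N+F libraries. Its gap to the next library was 0.837 of the range of the group, above Dixon's 95% critical value for 4 libraries. The 4 N+F libraries measured 2.55, 0.449, 0.0883 and 0.489 CPM, from 26, 5, 1 and 6 counts. Of the 6 members examined in this way 1 was past the critical value, and chance alone puts about 1 in 20 groups past it.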

How the results depend on the processing

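In tissue, edgeR called 1 gene higher and 16 lower with N+F. No filter gave 2 and 27, and DESeq2 gave 63 and 73, with 1 member called (Nr4a1). Leaving out each library gave 0 to 1 higher, 0 to 28 lower and 0 to 1 members called. Each N+F library left out gave 0 calls, control 1 left out gave 28 lower, control 2 left out 2 and control 3 left out 0. The labels state no pairing by replicate number. Libraries of equal number, each taken relative to its group mean, correlated at -0.00131, -0.0827 and 0.125, which is too few pairs to settle it. With the replicate number as a block 0 genes were higher and 0 lower. Nr4a1 then had a log2 fold change of 1.12 and an adjusted p of 0.235. Over the libraries left out, log2 fold changes ran from 0.77 to 1.55 for Nr4a1, and crossed 0 for Nr4a2 (-0.47 to 0.11), Nr4a3 (-0.29 to 0.13), Foxa1 (-0.63 to 0.02, with no value without N+F 1, where it failed the filter) and Foxa3 (-0.24 to 0.59). The reversals were 0.11 for Nr4a2, 0.10 for Nr4a3, 0.020 for Foxa1 and -0.18 for Foxa3 without control 3, -0.24 for Foxa3 without control 1, -0.14 for Foxa3 without N+F 3, and 0.13 and 0.08 for Nr4a3 without N+F 1 and N+F 2. The difference in the log2 ratio of Nr4a1 to Nr4a2 stayed between 1.13 and 1.43 (chosen after seeing the data). The Foxa2 difference ran from 0.222 CPM without N+F 1 to 1.04 CPM.

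In culture, genes higher and lower with N+F in both regions numbered 279 and 16. They numbered 419 and 30 with a pseudocount of 0.1 CPM, 101 and 5 with 5 CPM, 440 and 36 with none (chosen after seeing the data) and 0 and 0 in the additive edgeR fit, which called 0 members higher. The largest line of each symbol gave 41 lower. On that line Nr4a2 in cortical glia had a log2 ratio of 4.99 with N+F, and -3.98 with amyloid beta (-2.50 in hippocampal glia). The cause of these shifts was not tested. All 3 Nr4a genes stayed lower with amyloid beta under each alternative ratio, and 2 in the additive fit. Depth limits Foxa1, Foxa2 and Foxa3 in tissue, with 1 to 35 counts per library.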
